A study of Homo sapiens with 4 samples.

Results

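The 10 genes described here lie side by side on the short arm of human chromosome 8, around the receptor gene FGFR1: ASH2L, LSM1, BAG4, DDHD2, PLPP5, NSD3, LETM2, FGFR1, TACC1 and PLEKHA2, in the order of their coordinates. They were given as a list of neighbours, out of the 20037 protein-coding genes that RefSeq places on GRCh38.p14 (hg38). A peak was assigned to a gene when its summit lay in the gene span or within 5 kb of it. By this rule 1 of the 462 attached peaks and 18 of the 9024 suspended peaks belonged to these genes. From 5 kb before ASH2L to 5 kb after PLEKHA2 the locus runs over chromosome 8, 38100493 to 38978912, a length of 878.42 kb, and it held 1 attached and 25 suspended peaks.

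The peaks come from chromatin immunoprecipitation with sequencing (ChIP-seq) of the ETS-family transcription factor SPIB in H1703 cells, a long-established line from a human lung squamous carcinoma, which were made to overexpress SPIB. The antibody was the anti-FLAG M2 antibody, and the groups were attached and suspended cells with 1 ChIP library each, called against 1 input library of the same condition. The protocol label names a suspension of 24 h for every library, so the condition label was used to tell the groups apart. There were no replicates, so no difference between the conditions carries a p-value. After filtering, the attached ChIP library held 21108364 tags and its input 15878452. The suspended ChIP library held 20766909 tags and its input 21437074. The files hold no expression values, so the labelled cell type could not be checked against marker genes.

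FGFR1 encodes a receptor tyrosine kinase that binds fibroblast growth factors at the cell surface and signals through the adaptor FRS2 to the RAS-MAPK and PI3K pathways. The region around it is often amplified in squamous carcinoma of the lung, and H1703 is known as a line with extra copies of it. Its neighbours serve other purposes, among them histone methylation (NSD3, ASH2L), decay of messenger RNA (LSM1), lipid metabolism (DDHD2, PLPP5) and inhibition of death receptor signalling (BAG4), so they share a place in the genome more than a pathway. DNA copies were not measured here.

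In suspended cells 9 of the 10 genes had a peak, where 28.6% of all protein-coding genes had one. In attached cells 2 of the 10 had one, NSD3 and LETM2, where 1.86% of protein-coding genes had one, and these 2 genes share a single peak. The 9 genes are not independent either: 3 of the 18 suspended peaks were assigned to more than 1 gene, 1 of them to DDHD2, PLPP5 and NSD3 together. The locus held 28.5 suspended peaks per Mb (exact Poisson 95% interval 18.4 to 42.0, counting error only), the rest of chromosome 8 held 2.39 and the rest of the genome 2.90. The adjoining 1 Mb below and above the locus held 20 and 9. In the attached list the densities of the locus, the rest of the chromosome and the rest of the genome were 1.14 (0.0288 to 6.34), 0.118 and 0.146 per Mb.

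**Figure D1:**
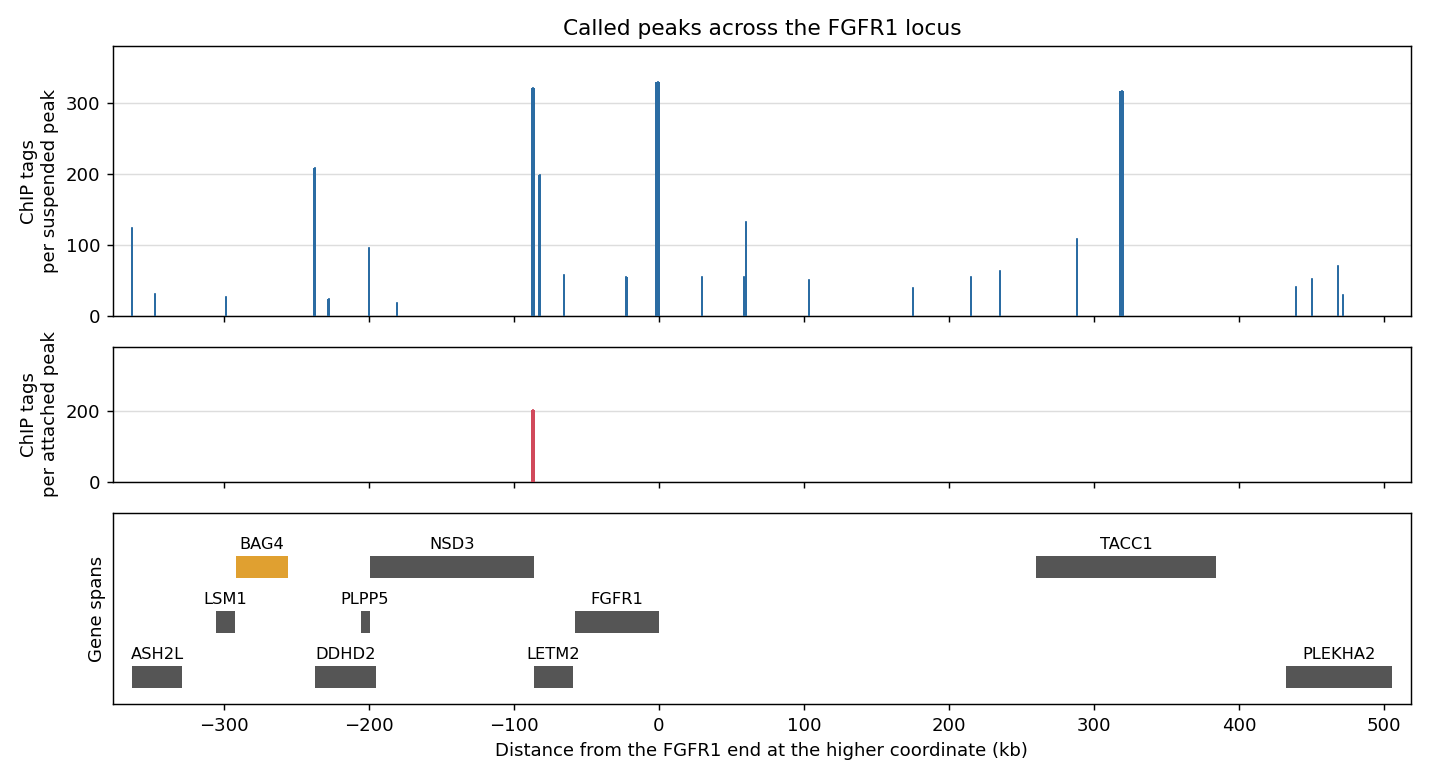
ChIP tags in each called peak of the suspended (upper panel) and attached (middle panel) list, and the spans of the 10 genes (lower panel, BAG4 in orange as the gene with no suspended peak), against distance from the higher-coordinate end of FGFR1 in kb. Each bar is 1 peak, with narrow peaks drawn wider than to scale. The 25 suspended peaks reach from 19 to 330 tags, and the 1 attached peak of 202 tags stands at the junction of NSD3 and LETM2.

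FGFR1 spans chromosome 8, 38411143 to 38468635. No attached peak was assigned to it, and the nearest attached summit lay 28736 bp below the span. Its larger suspended peak, at 38466247 to 38469513, held 330 tags (exact Poisson 95% interval 295.4 to 367.6) over 3267 bp. That region covered the higher end of the gene, with its summit 1234 bp inside. It ranked 3 in width and 4 in tags among the 9024 suspended peaks, yet the authors' fold was only 3.23, with a false discovery rate (FDR) of 1.21%. The smaller peak, at 38445987 to 38446690, held 56 tags (42.3 to 72.7) over 704 bp at a fold of 4.39 and an FDR of 3.31%. Its summit lay 22488 bp from the higher end. The 2 FGFR1 peaks thus differed in tags by more than their counting intervals and were alike in having a low fold.

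NSD3 encodes a histone H3 lysine 36 methyltransferase of the NSD family and spans 38269704 to 38382271. LETM2, a relative of the mitochondrial inner membrane protein LETM1, starts 160 bp further on and spans 38382431 to 38409527. Between them lay the only site of the locus called in both lists. The attached peak, at 38380716 to 38383090, held 202 tags (175.1 to 231.9) over 2375 bp. The suspended peak, at 38380705 to 38383429, held 321 tags (286.8 to 358.1) over 2725 bp. Both regions covered the higher end of NSD3 and the lower end of LETM2, and the summit of the suspended peak lay 411 bp inside NSD3, whereas that of the attached peak lay in the short gap between the genes, 24 bp before LETM2. The position does not tell which gene the site belongs to.

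The attached peak at NSD3 and LETM2 was the widest of the 462 attached peaks and the second richest in tags. Its score (minus 10 times log10 of the authors' p-value) was 51.09, close to the lowest score in either list, and its FDR was 100%, so that as many peaks of such a score were found with ChIP and input exchanged. Its fold of 6.27 was below the 10th percentile of the attached list (9.03). In the suspended list the same site had the highest score of the locus, 334.35, with a fold of 5.47 and an FDR of 0%.

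At this site tags scaled to the depth of each ChIP library were 1.62 times as many in the suspended as in the attached peak (exact binomial 95% interval 1.35 to 1.94, counting error only). Per bp of called peak the ratio was 1.41. Over all 210 sites called in both lists the median ratio was 1.36 (interquartile range 1.08 to 1.76), and per bp it was 1.10 (0.956 to 1.31). The counting interval of the NSD3 and LETM2 site only just includes the median of all sites for tags (lower limit 1.350, median 1.355). The site ranked 62 of 210. Per bp it ranked 36, and no counting interval was computed per bp. The site ranked 2 in tags among the 210 in both lists, and its ratio lay inside the interquartile range of all sites for tags and above it per bp.

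**Figure D2:**
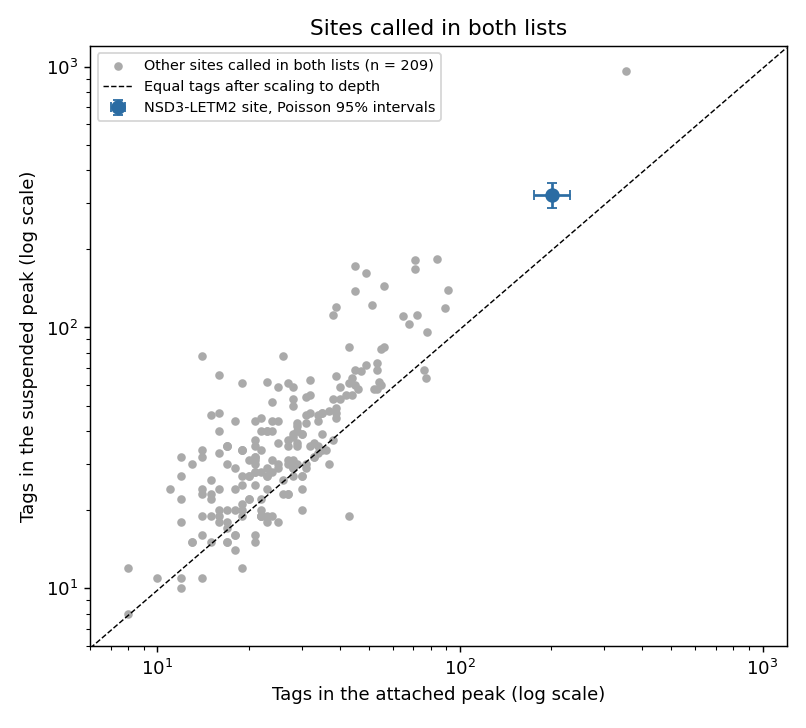
Tags in the suspended peak against tags in the attached peak, both on log scales, for the 210 sites called in both lists. The NSD3 and LETM2 site is in blue with exact Poisson 95% intervals, the dashed line marks equal tags after scaling to depth, and the site lies above it with 321 and 202 tags.

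NSD3 and LETM2 shared a further suspended peak at 38385450 to 38387529, 3995 bp inside LETM2, with 199 tags (172.3 to 228.7) over 2080 bp, a fold of 3.90 and an FDR of 0.6%. A further suspended peak of LETM2, at 38402886 to 38403548, lay 6205 bp from its higher end and held 58 tags (44.0 to 74.98) at a fold of 4.40. Deeper in NSD3, 18229 bp from its lower end, a narrow peak of 218 bp at 38287846 to 38288063 held 19 tags (11.4 to 29.7). It was the smallest suspended peak of the locus, with an FDR of 6.28%. NSD3 thus had 4 assigned suspended peaks and LETM2 had 3, with the large ones crowded around the junction of the 2 genes.

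ASH2L, a core subunit of the COMPASS complexes that methylate histone H3 lysine 4, spans 38105493 to 38140080 and had 2 suspended peaks. The first, at 38104577 to 38105802, covered the lower end of the gene with its summit 73 bp inside, and held 124 tags (103.1 to 147.8) over 1226 bp at a fold of 3.90. The second, 15529 bp inside at 38120865 to 38121274, held 32 tags (21.9 to 45.2) at a fold of 5.10. LSM1, a subunit of the cytoplasmic LSM ring that promotes decapping of messenger RNA, spans 38163321 to 38176730. Its 1 suspended peak, at 38170045 to 38170386, held 27 tags (17.8 to 39.3) at a fold of 6.09 and lay near the middle of the gene, 6514 bp from the higher end. The ASH2L peak at the gene end held more tags than the other peaks of both genes beyond the counting intervals, and had the lowest fold of the 3.

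DDHD2, a phospholipase and triglyceride hydrolase that is mutated in a form of hereditary spastic paraplegia, spans 38231585 to 38273647. PLPP5, a lipid phosphate phosphatase, spans 38263130 to 38269224 and lies wholly inside the DDHD2 span. A suspended peak at 38230530 to 38232618 covered the lower end of DDHD2, with its summit 208 bp inside, and held 209 tags (181.6 to 239.3) over 2089 bp at a fold of 3.72. The peak at 38268291 to 38269337 covered the higher end of PLPP5, with its summit 51 bp inside, and held 96 tags (77.8 to 117.2) over 1047 bp at a fold of 4.24. By the 5 kb rule this peak also counted for DDHD2 and for NSD3, whose nearer end lay 531 bp away. Another peak, 9276 bp inside DDHD2 at 38240734 to 38241102, held 24 tags (15.4 to 35.7) and had the highest fold of the locus, 6.72, with an FDR of 5.36%.

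TACC1, a coiled-coil protein of the transforming acidic family linked to centrosomes and microtubules, spans 38728582 to 38853028. Its 2 suspended peaks lay far from both ends of the span. The larger, at 38786025 to 38789449, was 3425 bp wide, second in the list only to a peak at EIF4EBP1, and held 317 tags (283.1 to 353.9) at a fold of 4.41, an FDR of 0% and a score of 183.17. Its summit was 59362 bp from the nearer end. The smaller, at 38756654 to 38757603, held 109 tags (89.5 to 131.5) at a fold of 3.78. The table of genes gives the ends of the span and no internal transcript starts, so the peaks cannot be placed relative to exons or introns.

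PLEKHA2 encodes an adaptor with a pleckstrin homology domain that binds phosphoinositides, and spans 38901346 to 38973912. It had 4 suspended peaks, all inside the gene and 6641 to 39210 bp from its lower end, with 41, 52, 71 and 30 tags in that order. Their folds were 4.61, 4.74, 4.10 and 4.53, and none was near the size of the largest peak at FGFR1, TACC1 or NSD3. BAG4, a co-chaperone also called silencer of death domains, spans 38176855 to 38213301 and was the gene with no peak in either list. The nearest suspended summits lay 6639 bp below it, in LSM1, and 18492 bp above it, at DDHD2. The peak in LSM1 was therefore the nearest one outside the 5 kb limit for BAG4, and with a limit of 10 kb all 10 genes had a suspended peak. The assigned summit closest to the limit from inside lay 4155 bp beyond NSD3.

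Peaks at the ends of these genes were large. In suspended cells 6 of the 10 genes had an end covered by a called region, where 5.84% of protein-coding genes did. These were ASH2L, DDHD2, PLPP5, NSD3, LETM2 and FGFR1, with 1 end each, or 6 of the 20 ends. The table gives no strand, but from the known orientation of these genes all 6 are the ends where transcription begins. The 5 regions concerned held 96 to 330 tags over 1047 to 3267 bp. The other 20 suspended peaks of the locus held a median of 56 tags (19 to 317) over a median of 705.5 bp. A wide region covers an end more readily than a narrow one. By summits within 1 kb of an end, a rule that does not use the width, 5 of the 10 genes were counted, where 13.8% of protein-coding genes were, and FGFR1 dropped out. In attached cells NSD3 and LETM2 were counted by both rules, where 0.304% of protein-coding genes had an end covered and 0.809% a summit within 1 kb. LSM1 and BAG4, whose facing ends are 125 bp apart, had no peak there in either list.

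Between FGFR1 and TACC1 lies a stretch of 259.9 kb without a protein-coding gene. It held 7 suspended peaks with 40 to 132 tags, widths of 575 to 1443 bp and folds of 2.95 to 6.16, all of them more than 5 kb from the 10 genes. A pair of them, at 38527270 to 38527992 and 38527995 to 38529437, almost touched, at the end of the noncoding gene LINC03042, and held 56 and 132 tags. The second had the lowest fold of the locus, 2.95. Of the 7 peaks, 4 had a noncoding gene of the table within 5 kb and 3 had no gene. The peaks of the locus were therefore not confined to its protein-coding genes.

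Against the medians of their list, all suspended peaks of the locus were richer in tags and lower in fold, and most were wider. Some other peak-rich stretches of the genome also had wide peaks of low fold, as given under other observations. The lowest, median and highest widths were 218, 723 and 3425 bp, against a median of 252 bp over all 9024 peaks. The tags were 19, 56 and 330, against a median of 15. The authors' fold was 2.95, 4.41 and 6.72, against a median of 9.10. All 25 folds lay below the lower quartile of the list (6.82), and 19 lay below its 10th percentile (5.46). The locus held 5 of the 15 suspended peaks that were at least 2000 bp wide. Of the 5 widest suspended peaks, 3 were in the locus and 4 on chromosome 8. Scores were not unusual, with a median of 59.86 against 59.12. In the locus 2 of the 25 peaks scored 100 or more, at the NSD3 and LETM2 junction and in TACC1, against 685 of the 9024 in the list.

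**Figure D3:**
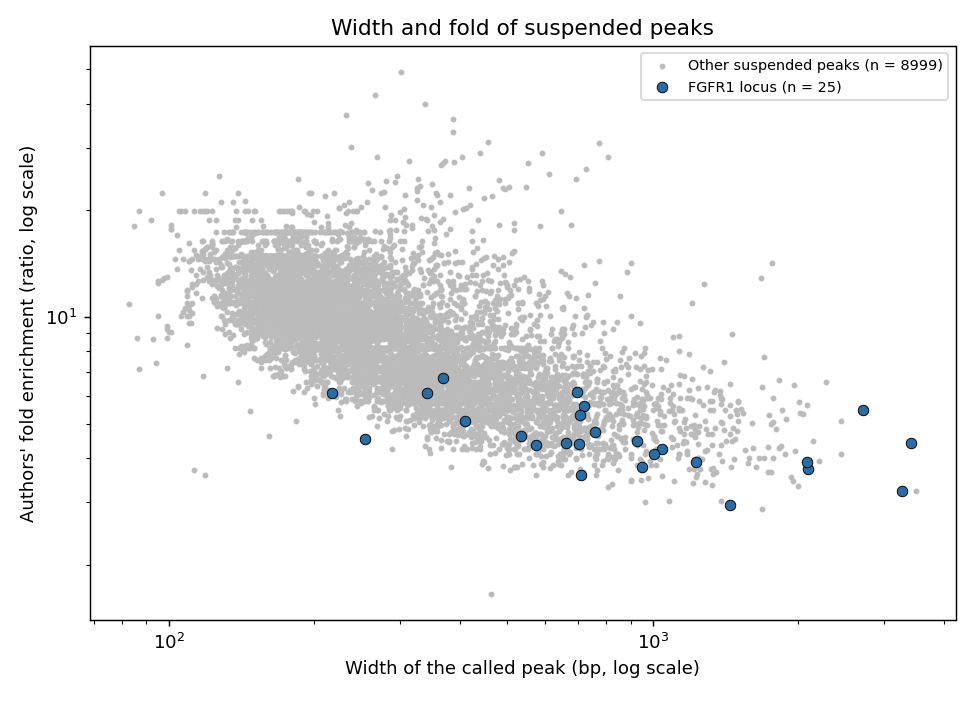
The authors' fold enrichment against the width of the called peak in bp, both on log scales, for all 9024 suspended peaks. The 25 peaks of the FGFR1 locus (blue) reach from 218 to 3425 bp and lie in the lower part of the cloud, with folds from 2.95 to 6.72.

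Tags and fold were joined in 1 measure, the implied background, which is the tags of a peak divided by the authors' fold and by its width. It is given in tags per kb and is read here only relative to other peaks of the same list. In the suspended list the lowest, median and highest values of the locus were 9.68, 18.1 and 31.3 tags per kb, against a median of 6.396 over all peaks, a ratio of medians of 2.83. All 25 values lay above the upper quartile of the list (9.11) and 24 above its 90th percentile (12.2), the exception being the 369 bp peak inside DDHD2. The highest values were at the FGFR1 end (31.3), in the gap beside LINC03042 (31.0) and in the smaller TACC1 peak (30.4). In the attached list, called against another input, the 1 peak of the locus had 13.6 tags per kb against a median of 4.62, a ratio of 2.94.

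Implied background rose with width throughout the lists, so peaks of like width were also set side by side. Among suspended peaks from 500 bp to under 1000 bp, the median was 16.0 tags per kb for the 11 in the locus and 11.2 (interquartile range 9.03 to 13.8) for the 1087 elsewhere. From 1000 bp to under 2000 bp it was 23.8 for 4 peaks and 15.2 (12.6 to 18.3) for 192. At 2000 bp or more it was 24.5 for 5 peaks and 16.5 (12.9 to 18.9) for 10, and below 500 bp it was 14.3 for 5 peaks and 5.86 (4.44 to 7.98) for 7710. The locus had the higher median, and the lower median fold, in each of the 4 width classes. Among suspended peaks of at least 500 bp the ratio of medians was 1.68. In the attached list no other peak reached 2000 bp. The 3 peaks from 1000 bp to under 2000 bp had a median of 13.7 tags per kb (lowest 11.7, highest 17.2). The 13.6 of the NSD3 and LETM2 peak was thus not higher than the median of the peaks nearest to it in width. The part of the higher implied background in the counts of peaks at these genes was not tested.

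The higher implied background did not end with the 10 genes. Going along chromosome 8 from peak to peak, 47 suspended peaks in a row had an implied background above the upper quartile of the list. This run went from 37584404 to 39087349, a length of 1.50 Mb, and its limits were read from the values. The peak before it, at 37360262, had 8.74 tags per kb and the peak after it, at 39396961, had 7.23. The 1 Mb just below the locus held 20 suspended peaks, with a median implied background 2.35 times that of the list, and the 1 Mb just above it held 9, at 2.03 times. More than 1 Mb below the locus, chromosome 8 was poor in peaks, with 13 suspended peaks in 37.1 Mb (0.350 per Mb), a median implied background of 6.85 and a median fold of 8.75. More than 1 Mb above the locus there were 302 in 105.1 Mb (2.87 per Mb), with medians of 6.48 and 9.10. The median implied background was thus 2.83 times that of the list in the locus, between 2.03 and 2.35 times in the adjoining 1 Mb on each side, and 1.07 and 1.01 times further below and above.

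**Figure D4:**
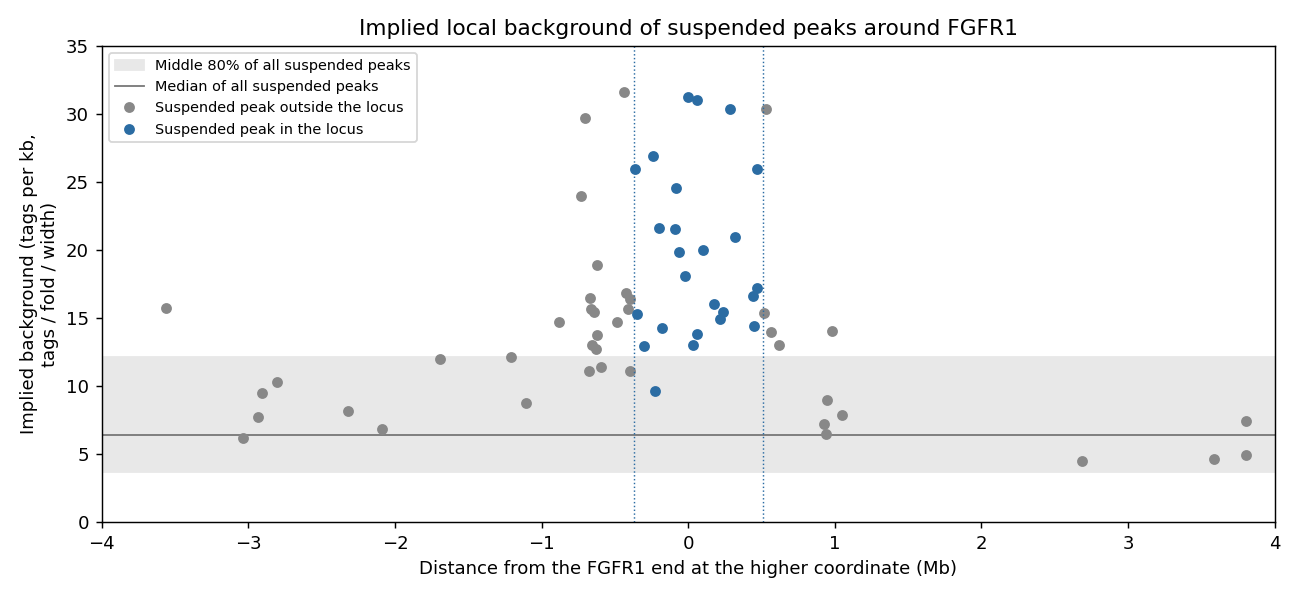
Implied background of suspended peaks in tags per kb against distance from the higher-coordinate end of FGFR1 in Mb, for 4 Mb on each side. Blue points are the 25 peaks between the dotted limits of the locus, grey points other peaks of chromosome 8, the line the median of all suspended peaks (6.396) and the band their 10th to 90th percentile (3.72 to 12.2). All but 1 of the blue points lie above the band.

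Of 18 other protein-coding genes that lie in the locus or within 1 Mb of it, 9 had a suspended peak and none had an attached one, where the shares of all protein-coding genes were 28.6% and 1.86%. Below the locus these were ERLIN2, PLPBP, ADGRA2, BRF2, RAB11FIP1 and EIF4EBP1, and above it HTRA4, TM2D2 and ADAM9. EIF4EBP1, which encodes the translation repressor 4E-BP1 downstream of MTOR, had the widest peak of the whole suspended list, 3502 bp with 358 tags (fold 3.23). ADGRA2, an adhesion receptor gene, had the most peaks, 8, with 500 tags in all. The peak of 204 tags at the junction of TM2D2 and ADAM9, a metalloprotease gene, had a fold of 3.45. STAR, the cholesterol transporter of steroid-making cells, was the other protein-coding gene between ASH2L and PLEKHA2 and had no peak, and neither did ZNF703, GOT1L1 or ADRB3 below the locus and ADAM32, ADAM18, ADAM2, IDO1 or IDO2 above it.

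The other genes of the FGF pathway lie elsewhere in the genome and were counted by the same rule. Their counts stand beside shares of 28.6% (suspended) and 1.86% (attached) over all protein-coding genes. The peak of highest fold is given for each gene. Besides FGFR1, 1 of the 6 other receptors and coreceptors, FGFR4, had a suspended peak (37 tags, fold 5.46, at a gene end). Of 18 ligands, FGF1 (10 tags, fold 12.73) and FGF8 (64 tags, fold 4.43) had one. Of 21 adaptors and signal transducers 6 did, or 28.6%, the same as the share of all protein-coding genes. These included the adaptor GRB2 (37 tags, fold 5.65), the phosphatase PTPN11 (14 tags, fold 11.05) and the exchange factors SOS1 and SOS2 (10 and 8 tags). Of 18 feedback regulators and targets 7 did, or 38.9%, among them the inhibitors SPRED2, IL17RD and SPRY4 (8, 28 and 31 tags) and the ETS factor ETV5 (14 tags). In attached cells GRB2 was the one gene of these lists with a peak, of 38 tags at a fold of 8.62 and an FDR of 53.51%.

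Genes that work with the neighbours of FGFR1 were counted in the same way, beside shares of 28.6% (suspended) and 1.86% (attached) over all protein-coding genes. Of 16 COMPASS subunit genes, ASH2L included, 11 had a suspended peak, or 68.8%. The highest folds were at PAXIP1 (10.92), KMT2C (10.57), NCOA6 (10.43) and SETD1B (8.56), and in attached cells DPY30 and MEN1 had one (22 and 21 tags, both at an FDR of 100%). Of 16 genes of the LSM ring and of decapping, LSM1 included, 10 had a suspended peak, or 62.5%, with folds of 14.9 at EDC3, 13.11 at XRN1, 11.47 at PATL1 and 10.74 at EDC4. Of 5 genes of the NSD family and its partners NSD2, NSD3 and CHD8 had one. Of 17 other relatives and partners of the members 3 did, BAG3 (fold 11.92), SEC23IP (10.24) and BAG5 (8.82). All of these lists are short and were chosen with earlier results of these data known. The suspended peaks named here outside the locus were taken for their high fold, held 8 to 18 tags and were narrow, at 114 to 323 bp.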

How the data were processed

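SPIB ChIP-seq peaks of H1703 cells were taken from 2 deposited lists, 1 for attached and 1 for suspended cells. Per the file headers, the authors used MACS 1.4.2 with each ChIP set against its own input, a cutoff on p of 1e-05, windows of 1 and 10 kb for the local background and 1 tag kept per position. The build was hg38, per the submitters' processing notes. No aligner is named in the sources used here. The deposited tags are a raw count per peak. Fold is a ratio computed by the authors, of ChIP over local background, FDR is a percent by the authors, and the deposited score is read as minus 10 times log10 of p because its column name was lost in the file.

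Summits were placed at start plus offset minus 1. Gene spans came from RefSeq (GRCh38.p14, no strand, exons or UTRs), and all 10 members were found. No promoter sequence of these genes was used, so the planned motif count was not run, and no bounds of chromosome arms were used, so densities are set beside the whole chromosome. The length of a chromosome was taken as the stretch between its outermost genes in the table. Intervals are exact Poisson or exact binomial 95% intervals and cover counting error only. Tags divided by fold came to a median of 0.583 (suspended) and 0.305 (attached) of the Poisson mean that tags and score give, so the implied background is read as ratios within a list. Counting was tested on simulated peaks. The members, the lists and the rules were chosen with earlier results of these data known. The rule for named genes took every member and locus peak, neighbours within 1 Mb with a peak, and up to 4 genes per further list by suspended fold. GRB2, DPY30 and MEN1 were added after their values were seen, as the genes of these lists with an attached peak. Python 3.11.15, numpy 2.4.6, pandas 2.3.3, SciPy 1.17.1 and matplotlib 3.10.9 were used. Alternatives changed the flank, the peak threshold, the extent of the locus, the measure of background and the scaling of tags.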

Additional observations from a re-analysis of the deposited data

How the results depend on the processing

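The suspended count of 9 genes stayed within 6 to 10 under other flanks, overlap of the called region, an FDR of at most 5% and scores above the list median. Under these settings 18.0% to 32.2% of protein-coding genes had a peak. The count was 3 when scores had to reach 100, where 3.66% of protein-coding genes had a peak. The attached count of 2 genes became 0 with no flank, at an FDR of at most 5%, with scores above the median and with scores from 100 up. In that order 1.12%, 0.105%, 0.988% and 0.220% of protein-coding genes had an attached peak under these settings. The attached peak of the locus likewise went from 1 to 0 under the last 3 of them, which kept 25, 231 and 47 of the 462 attached peaks. The 25 suspended peaks became 14 with scores above the median and 2 with scores from 100 up. The whole list of 9024 peaks became 4513 and 685 under these thresholds. In the other alternatives the count of suspended locus peaks ranged from 22 to 33. The ratio of implied background to the list median, 2.83 in suspended and 2.94 in attached cells, was 3.44 and 4.02 by the Poisson mean from tags and score. In alternatives added after seeing the data it was 2.17 and 2.29 when locus and list peaks were at least as wide as the median, and 1.68 and 1.50 when they were at least 500 bp wide. The attached value rests on 1 peak, set against peaks that are nearly all narrower than 1000 bp. The tag ratio at the NSD3 and LETM2 site ranged from 1.41 to 1.62. No paired analysis was possible because each group has 1 library, and no library could be left out. Depth limits the comparison of single peaks, which held 19 to 330 tags.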

Other observations

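On a fixed grid of 1 Mb windows, 2119 held a suspended peak. The window from 38 to 39 Mb of chromosome 8 ranked 4th by number of peaks (32), 2nd by tags in peaks (3357) and 3rd by covered length (36.6 kb). Among the 659 windows with at least 5 peaks it ranked 3rd by median implied background, at 17.0 tags per kb. The windows with more peaks were on chromosome 12 (55 peaks), chromosome 17 (53) and chromosome 5 (38), with medians of 14.1, 12.8 and 13.0. On chromosome 5 lay the windows ranked 1st and 2nd by median implied background, at 43 Mb (19.0) and 14 Mb (17.1). In the FGFR1 window median width and fold were 717 bp and 4.405. They were 863 bp and 5.33 on chromosome 12 and 695 bp and 5.64 on chromosome 17. For chromosome 5 they were 539 bp and 5.325 (38 peaks), 648 bp and 4.54 (14 Mb) and 513.5 bp and 4.835 (43 Mb). By number of peaks, the run of 47 around FGFR1 was the second longest of its kind in the suspended list, after 53 peaks on chromosome 12. In length it exceeded that run, with 1.503 against 0.741 Mb, but a run of 19 peaks on chromosome 5 was longer, at 1.658 Mb.

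The genes beside PDGFRA, another receptor tyrosine kinase gene known for extra copies in H1703, were measured in the same way. Over 2.26 Mb of chromosome 4 that region held 17 suspended peaks (7.51 per Mb) and no attached one. Its median implied background was 10.2 tags per kb, 1.60 times the list median, and its peaks had a median width of 518 bp and a median fold of 6.14. Values were higher close to PDGFRA. On the fixed grid, the chromosome 4 window from 54 Mb, where a PDGFRA peak lay, held 10 suspended peaks with a median of 15.6 tags per kb. It ranked 4th by this median among 659 windows, and the FGFR1 window ranked 3rd at 17.0. The difference between the regions was not tested.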
